A study of Homo sapiens with 9 samples.

Results

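The open chromatin regions of the emptiest stretches of the VCaP genome that still held several of them were examined. Peaks on chromosomes 1 to 22 from 9 ATAC-seq libraries were merged wherever they overlapped by at least 1 bp, which gave 92498 regions. Of these, 64569 had a call in 2 or more of the 3 libraries in any 1 group; they were kept and assigned by their midpoints to bins of 5 Mb. The members were the 1532 kept regions (2.37%) that lay in the 49 bins with 10 to 45 kept regions, out of 566 bins with any. The members were thus chosen by peak calls in these same libraries, so their number per bin and their spacing are a description and not a result.

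VCaP is an established human prostate cancer line whose growth depends on the androgen receptor, and enzalutamide is a drug that blocks that receptor. VCaP_DMSO (n = 3) was VCaP given the solvent, VCaP_ENZ (n = 3) was VCaP treated with 10 µM enzalutamide for 96 h, and VCaP16 (n = 3) was a VCaP derivative resistant to enzalutamide and kept in 16 µM of it. All groups carried the genotype label WT and were grown in DMEM with fetal bovine serum. No VCaP16 library was without the drug and the doses differed, so the resistant line, the drug and its dose cannot be told apart. VCaP16 is 1 resistant line, and the labels do not say that replicates were separate cultures, so every p-value here reflects only how far these libraries scatter, which may be technical. The question was whether open regions in sparse chromatin were called at other rates in VCaP16 or after the drug than in solvent-treated cells.

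In ATAC-seq the transposase Tn5 inserts adapters where DNA is free of nucleosomes, and peaks arise where many insertions fall together, mostly at promoters, enhancers and insulator sites. Long stretches with few such places are usually gene-poor, copied late in S phase, held at the nuclear lamina and packed as heterochromatin. Bins that reach a centromere, the short arm of an acrocentric chromosome or the end of a chromosome hold few peaks for another reason, since much of their sequence is repeated, unassembled or beyond the chromosome's last base. Coordinates are on hg19 and counted from 1. No annotation of that build was used here: each region has a position and no gene, exon or UTR, and the labelled cell type was not checked against its markers.

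The 9 lists held 52467 to 67304 peaks on chromosomes 1 to 22, and VCaP16 replicate 3 and VCaP_ENZ replicate 2 were the longest with 67304 and 60348. The lists give a position and the authors' score per peak; without read counts, library depth is unknown. A longer list calls more of any set of regions, so each library's share of members called was set against its share of all kept regions called. The difference, in percentage points, is called the excess share, and a negative value says that the library called members less often than kept regions at large. Subtraction in points may not remove the effect of list length in full.

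The median bin of the genome held 106 kept regions and the fullest held 348, against the 10 to 45 that define the member bins. At the lower limit the sparsest member bins were chr21:5000001-10000000 with 10 members and chr13:55000001-60000000 with 11, and the bins just outside were chr11:50000001-55000000 with 9 kept regions and chr16:90000001-95000000 with 8. At the upper limit 4 bins held 45 members, on chromosomes 2, 4, 18 and 21, and 3 bins just outside held 46, on chromosomes 9, 16 and 18. In the 9 bins with 43 to 45 kept regions the mean excess share was 2.10 points higher in VCaP16 than in the 6 VCaP libraries, and in the 6 bins with 46 to 48 the same difference was -1.22.

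Members lay on 16 chromosomes. Chromosome 5 held the most, 259 in 8 bins, followed by chromosome 6 with 204, chromosome 4 with 189, chromosome 2 with 149 and chromosome 13 with 148. As a share of a chromosome's kept regions, chromosome 13 led with 8.99%, followed by chromosome 18 with 8.58%, chromosome 5 with 7.35% and chromosome 21 with 7.22%. Chromosomes 7, 15, 16, 17, 20 and 22 had no member. The longest run of adjacent member bins was chr13:55000001-75000000, 4 bins with 90 members. The next were chr5:80000001-90000000 with 69 members and chr4:130000001-140000000 with 64.

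The median member lay 22.8 kb from the nearest kept region, against 10.3 kb for the other 63037 kept regions. Of the members 13.9% had no kept region within 100 kb, against 1.81% of the others, and the most isolated lay 1571 kb from its neighbour. Not all member bins were alike. In 11 bins, called gap bins here, the bin touched a stretch of at least 3 Mb without a peak in any list, and 4 terminal bins were the last of their chromosome. The other 34, called interior bins, held 1107 members (72.3%), while gap bins held 303 (19.8%) and terminal bins 122 (7.96%). This division was made after values had been seen. In gap and terminal bins the median distance between neighbours was 8.78 kb, shorter than that of kept regions elsewhere, and in interior bins it was 31.3 kb.

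The strongest members stood in gap bins and were called in every library. No filter for repeated sequence was applied here, and whether such sequence raised their scores was not tested. The member with the highest scores was chr1:121484079-121485429, which lies in a bin with a stretch of 3515 kb without a peak in any list. Its score was 3077, 2888 and 2772 in VCaP_DMSO, 2649, 3020 and 2426 in VCaP_ENZ and 2141, 2327 and 2533 in VCaP16. The next was chr19:27731918-27733643, with scores of 1154, 966 and 1060, then 928, 1012 and 875, then 751, 848 and 910 in the same order. After it came chr21:9826865-9827552, with scores of 345, 322 and 260, then 249, 295 and 166, then 244, 258 and 282. The other two named by the rule, chr1:144931423-144933169 and chr1:143913159-143914276, scored 147 to 264 and 143 to 263. A score depends on the depth of its library, so these values place a peak within its list and are not compared between groups.

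Strong regions also occurred in interior bins, at lower scores. The 5 highest there were picked after values were seen, outside the rule for naming regions, and all 5 were called in all 9 libraries. The highest was chr6:19892353-19893010, 658 bp wide and 25.3 kb from its neighbour, with scores of 120, 110 and 143 in VCaP_DMSO, 133, 138 and 102 in VCaP_ENZ and 125, 125 and 211 in VCaP16. It was followed by chr5:102455415-102456548 with scores from 92.9 to 153, which had no other kept region within 103 kb, and by chr4:164415349-164416357 with 93.7 to 147. The last 2, chr21:24824878-24825564 and chr13:60737692-60738597, scored 70.1 to 148 and 68.0 to 117. Ranking each region by its median position in the lists, 14 members (0.914%) stood in the top 1%, where 0.810% of all kept regions stood. Of these 14, 10 were in gap bins, 3 in interior bins and 1 in a terminal bin.

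Members as a whole were weaker, narrower and less often called than other kept regions. A list was ranked from its highest score to its lowest, and the median called member stood 52.9% of the way down, against 45.5% for other kept regions. The difference was 7.44 ± 1.67 percentage points (SD, n = 9) and members stood lower in 9 of 9 libraries (two-sided exact sign-flip permutation p = 0.00391, the smallest that 9 libraries allow). The median peak width was 412 bp in members and 455 bp in others, a difference of -43.7 ± 7.75 bp, again in 9 of 9 libraries (two-sided exact sign-flip permutation p = 0.00391). A library called 72.4% of members on average and 79.3% of the others, a difference of -6.96 ± 1.72 points that carries no test, since calls also chose the members. Calls rest on scores, so position is not independent of that choice either, and width may not be. The p-values for position and width cover only the spread between libraries and do not show a trait apart from the choice. All 9 libraries called 581 members (37.9%), against 50.1% of all kept regions, 45.7% of those in bins with 46 to 120 and 53.4% of those in bins with over 120. Interior members stood at 56.3% with a width of 398 bp, and 34.9% were called in all 9. Gap members stood at 46.6% with 434 bp and 43.2%, and terminal members at 46.7% with 465 bp and 52.5%. The lower position thus lay mainly in interior bins.

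**Figure D1:**
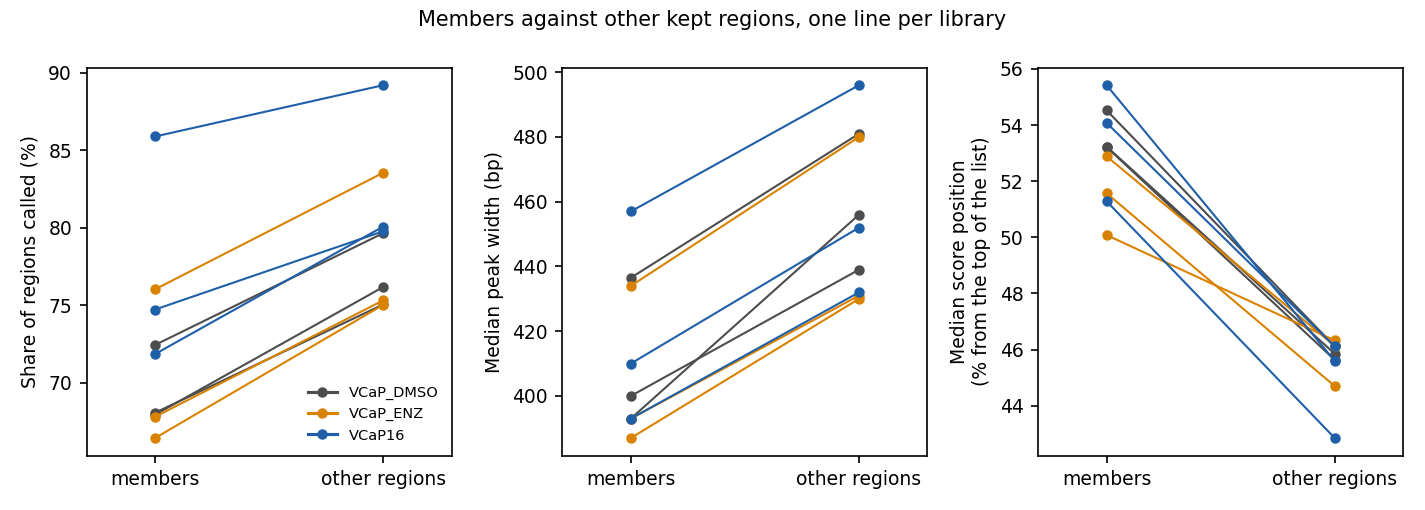
The panels plot, for each of the 9 libraries, members against other kept regions in share called (percent), median peak width (bp) and median position within the list (percent from the top). Lines join the 2 values of a library, and in all 9 libraries members were less often called, narrower and lower in the list.

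The deficit grew less with the number of regions in a bin, though not evenly. Averaged over the 9 libraries, the excess share was -7.59 points in the 10 bins with 10 to 20 kept regions, -10.5 in the 10 bins with 21 to 30 and -5.88 in the 29 bins with 31 to 45. It was -2.27 in the 282 bins with 46 to 120 and 1.69 in the 228 bins with over 120. Peaks outside any kept region were also more frequent in the member bins, where 78.1% to 91.7% of a library's peaks fell in kept regions, against 87.4% to 95.1% elsewhere. VCaP16 minus VCaP was 2.26, -1.32 and 2.82 points in the 3 classes of member bins, and 0.629 and -0.476 in the 2 fuller classes. Its sign thus changed within the member bins.

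**Figure D2:**
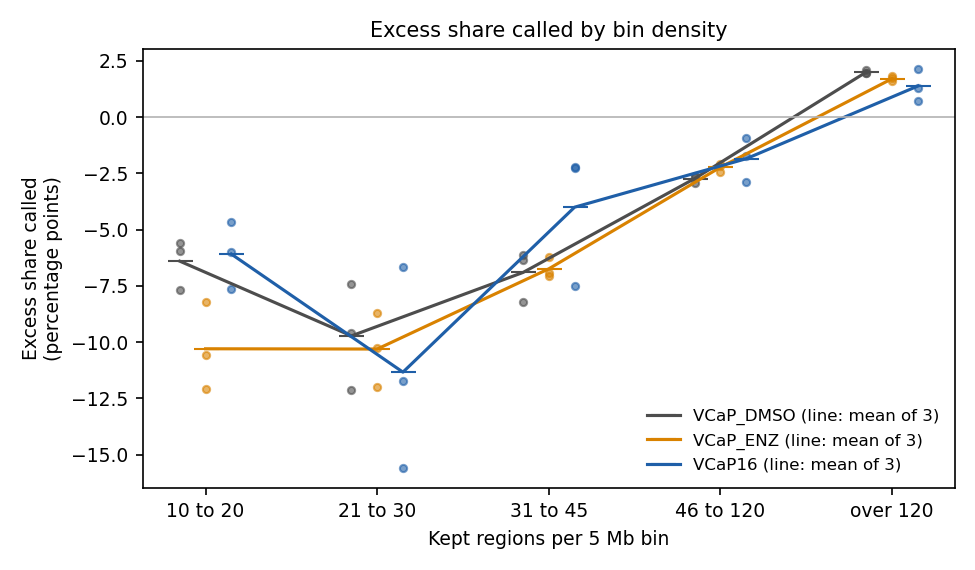
The plot shows the excess share (percentage points, y axis) of each library in 5 classes of bins by kept regions per bin (x axis), with points for libraries coloured by group and lines through group means. The average over libraries was lowest at -10.5 points in bins with 21 to 30 kept regions and rose to 1.69 in bins with over 120.

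Between groups, the share of all members called did not differ beyond the spread of replicates. The VCaP_DMSO libraries called 72.5%, 68.0% and 68.1% of members, VCaP_ENZ libraries 67.8%, 76.0% and 66.4%, and VCaP16 libraries 74.7%, 71.9% and 85.9%. Of all kept regions the same libraries called 79.5%, 76.0% and 74.9%, then 75.2%, 83.4% and 74.8%, then 79.7%, 79.9% and 89.1%. The excess share was therefore -7.04, -8.05 and -6.82 points in VCaP_DMSO, -7.33, -7.34 and -8.39 in VCaP_ENZ and -4.93, -8.03 and -3.23 in VCaP16. VCaP16 replicates 1 and 3 lay above every VCaP library, and VCaP16 replicate 2 lay among them.

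**Figure D3:**
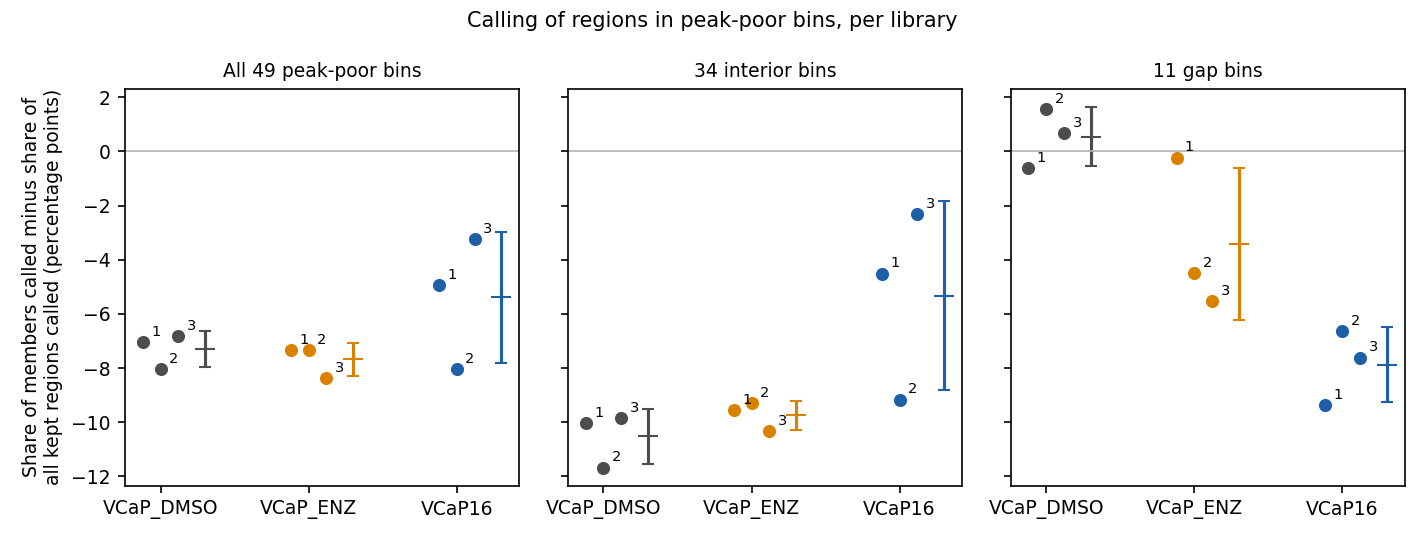
Points give the excess share of members (percentage points, y axis) for each library, numbered by replicate, by group (x axis), with mean and SD bars (n = 3), for all members and for the interior and gap bins. For all members the VCaP16 libraries spread from -8.03 to -3.23 points and the 6 VCaP libraries from -8.39 to -6.82, so the groups overlap.

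The group means (± SD, n = 3 each) were -7.30 ± 0.654 points for VCaP_DMSO, -7.69 ± 0.607 for VCaP_ENZ and -5.40 ± 2.43 for VCaP16. An exact permutation test of the sum of squares between groups, over 280 splits into 3 groups, gave p = 0.179 (0.35 after Benjamini-Hochberg adjustment over 7 tests). VCaP16 stood 2.10 points above the 6 VCaP libraries (two-sided exact permutation p = 0.0595 over 84 splits, adjusted p = 0.333). Against VCaP_DMSO the difference was 1.91 points for VCaP16 (exact permutation p = 0.3, adjusted 0.35) and -0.384 for VCaP_ENZ (exact permutation p = 0.5, adjusted 0.5), and VCaP16 minus VCaP_ENZ was 2.29 (exact permutation p = 0.3, adjusted 0.35). With 3 libraries a group, 0.1 is the smallest p that a pairwise test can reach.

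The VCaP16 difference was not the same in every setting. As a difference of log odds in place of points, VCaP16 minus VCaP was 0.0517 (exact permutation p = 0.25). Without VCaP16 replicate 3 VCaP16 minus VCaP was 1.02 points (exact permutation p = 0.286), and without VCaP16 replicate 2 it was 3.41 (exact permutation p = 0.0357). With the best 52467 peaks of every list, from which regions were kept and members chosen anew (53 bins, 46 of them shared), it was 0.603 points (exact permutation p = 0.476). The rule for keeping regions reads the groups, and with regions kept when called in any 2 of 9 libraries the difference was 1.12 points (exact permutation p = 0.488). Across the 9 libraries the excess share rose with the number of peaks in the list, with Pearson's r = 0.763 (exact permutation p = 0.0279, adjusted 0.0329 over 2 relations) and Spearman's rho = 0.55 (exact permutation p = 0.133, adjusted 0.133). Without the 2 libraries of most unusual list length, VCaP_ENZ replicate 2 and VCaP16 replicate 3, r was 0.479, so the relation rests on them.

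Other readouts of the member bins also overlapped between groups. Of each list's peaks, 2.31%, 2.27% and 2.30% fell in member bins in VCaP_DMSO, 2.21%, 2.25% and 2.18% in VCaP_ENZ and 2.33%, 2.19% and 2.54% in VCaP16. VCaP16 minus VCaP was 0.102 points (exact permutation p = 0.202, adjusted 0.35). The position of called members within their list, relative to all called kept regions, was 1.90 percentage points further down in VCaP16 (exact permutation p = 0.0952, adjusted 0.333). Which regions of the member bins were open followed the groups on average, though not for every pair of groups. Over the 2657 merged regions of these bins, kept or not, the Jaccard index (regions called in both libraries divided by regions called in either) averaged 0.578 within groups and 0.551 between groups. The difference of 0.0263 was the highest of all 280 splits (one-sided exact permutation p = 0.00357, the smallest they allow). This measure was added after the data had been seen. Within VCaP_DMSO the index was 0.572, within VCaP_ENZ 0.599 and within VCaP16 0.561. It was 0.577 for VCaP_ENZ with VCaP_DMSO, 0.527 for VCaP16 with VCaP_DMSO and 0.550 for VCaP16 with VCaP_ENZ. VCaP_DMSO libraries were thus no more alike among themselves than with VCaP_ENZ libraries. Elsewhere in the genome the averages within and between groups were 0.691 and 0.670, a difference of 0.0217. Libraries thus shared fewer regions in the member bins, and whether the differences of 0.0263 and 0.0217 differ was not tested.

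Interior and gap bins differed from VCaP in opposite directions in VCaP16. In the 1107 interior members the excess share was -10.0, -11.7 and -9.86 points in VCaP_DMSO, -9.57, -9.31 and -10.3 in VCaP_ENZ and -4.51, -9.16 and -2.32 in VCaP16. All 3 VCaP16 libraries lay above all 6 VCaP libraries, VCaP16 replicate 2 only just. The means were -5.33 ± 3.49 (SD, n = 3) in VCaP16 and -10.1 ± 0.838 (SD, n = 6) in VCaP, a difference of 4.80 points. As plain shares, VCaP16 libraries called 77.6% of interior members on average and VCaP libraries 67.2%.

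In the 303 members of gap bins the order was turned. The excess share was -0.617, 1.56 and 0.678 points in VCaP_DMSO, -0.233, -4.51 and -5.53 in VCaP_ENZ and -9.37, -6.63 and -7.61 in VCaP16. All 3 VCaP16 libraries lay below all 6 VCaP libraries, and VCaP_ENZ overlapped VCaP_DMSO through its replicate 1. The means were -7.87 ± 1.39 in VCaP16 and -1.44 ± 2.89 in VCaP, a difference of -6.43 points. The plain share called was 75.03% in VCaP16 and 75.9% in VCaP, so in gap bins VCaP16 libraries did not call more regions although they called more of the genome at large. In the 122 terminal members the difference was -1.23 points with overlapping libraries.

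These differences carry no test here, since the division was made with the values known. With lists of equal length the interior difference was 2.96 points and the groups overlapped, while the gap difference was -6.35 points and VCaP16 stayed below. Without VCaP16 replicate 3 the differences were 3.29 and -6.56 points, with no overlap in either. A minimum score of 5, and a required overlap of 50%, left the interior groups apart and let the gap groups overlap. With regions kept without reading the groups the reverse held: the interior difference was 3.86 points for regions called in 2 of 9 libraries and 3.41 for all merged regions, both with overlap, while VCaP16 stayed below in gap bins by differences of -5.51 and -5.47. In the 21 gap bins that held more than 45 kept regions the difference was -2.28 points, and in the other 473 interior bins it was 0.0439. Gap and terminal bins held 43.5% of the members in bins with 10 to 35 kept regions and 15.4% of those in bins with 36 to 45, against 6.85% of all kept regions.

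Counted bin by bin, the same calls showed the same division, which adds no separate support for it. VCaP16 averaged above VCaP in 27 of 34 interior bins, in 0 of 11 gap bins and in 2 of 4 terminal bins. Over all 49 member bins it was above in 29 (59.2%), against 52.4% of the 559 bins with at least 10 kept regions, and the median difference was 2.27 points against 0.182. In 5 member bins every VCaP16 library lay above every VCaP library, where this held for 4.11% of the 559 bins, and in 1 member bin every VCaP16 library lay below, where this held for 4.29%. Exact permutation tests of each bin gave an unadjusted p under 0.05 in 10 member bins and in 74 bins in all. After adjustment over the 559 bins the smallest p was 0.246, so no bin passed.

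**Figure D4:**
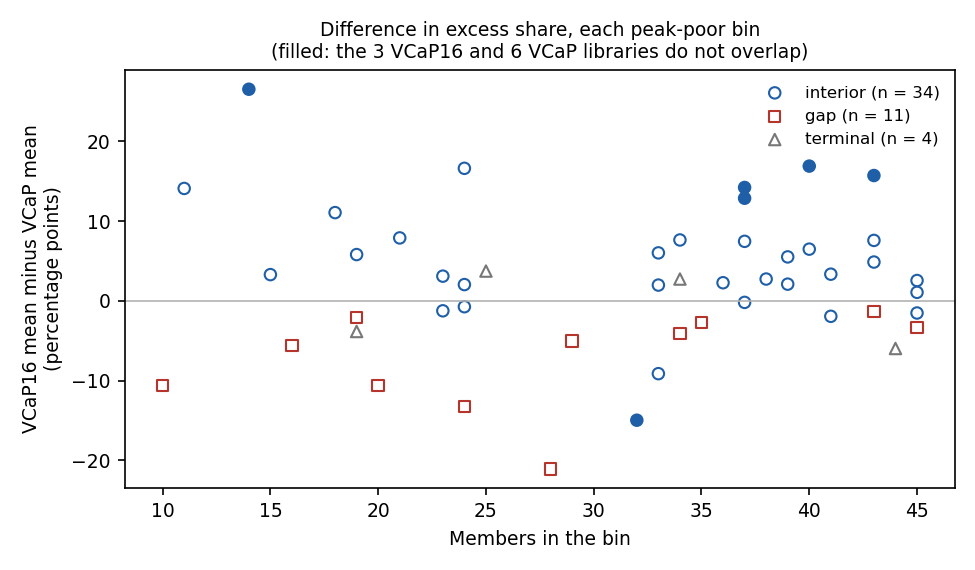
Each point is 1 of the 49 member bins, with the number of members on the x axis and VCaP16 minus VCaP in excess share (percentage points) on the y axis, marked by kind of bin and filled where the groups do not overlap. The differences run from -21.1 to 26.5 points, and all 11 gap bins lie below 0 while 27 of 34 interior bins lie above it. The kinds of bin were divided after values had been seen.

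The 5 bins above were all interior. The widest difference was in chr14:40000001-45000000, where VCaP_DMSO libraries called 6, 6 and 8 of 14 members, VCaP_ENZ libraries 7, 7 and 5 and VCaP16 libraries 10, 12 and 11. The excess share differed by 26.5 points in this small bin. In chr4:160000001-165000000 the libraries called 23, 21 and 23, then 25, 28 and 22, then 31, 30 and 37 of 40 members, a difference of 16.9 points. No VCaP library reached the lowest VCaP16 count in either bin. The chromosome 4 bin was also the one of these 5 whose groups stayed apart with a minimum score of 5, lists of equal length, 50% overlap, regions called in 2 of 9 libraries and each library left out.

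In chr2:185000001-190000000 the libraries called 27, 28 and 28, then 28, 29 and 25, then 36, 32 and 42 of 43 members, a difference of 15.7 points. In chr2:140000001-145000000 they called 20, 14 and 17, then 21, 21 and 21, then 25, 23 and 31 of 37 members, a difference of 14.2 points. In chr18:35000001-40000000 they called 26, 20 and 28, then 25, 29 and 21, then 30, 30 and 35 of 37 members, a difference of 12.9 points. With lists of equal length the groups overlapped in the chromosome 14 and 18 bins and in chr2:140000001-145000000. They also overlapped in the chromosome 14 bin with a minimum score of 5, in chr2:185000001-190000000 and the chromosome 18 bin with 50% overlap, and in both chromosome 2 bins and the chromosome 18 bin with regions called in 2 of 9 libraries. The bin below was chr5:100000001-105000000, also interior, where the libraries called 22, 24 and 26, then 22, 25 and 23, then 16, 21 and 25 of 32 members, a difference of -15.0 points. Its raw counts overlapped, and the groups were apart only after each library's overall share was subtracted. They were not apart with a minimum score of 5 (difference -13.8), with 50% overlap (-11.0) or with regions called in 2 of 9 libraries (-10.3).

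The longest runs of member bins did not share a direction. Across the 90 members of chr13:55000001-75000000 VCaP16 minus VCaP was 4.58 points, in chr5:80000001-90000000 it was -3.19 and in chr4:130000001-140000000 it was 4.81. On the 5 chromosomes with the most members, VCaP16 minus VCaP was -2.64 points in the 259 members of chromosome 5, 1.26 in the 204 of chromosome 6, 6.30 in the 189 of chromosome 4, 5.47 in the 149 of chromosome 2 and 7.23 in the 148 of chromosome 13. The groups overlapped on each of these 5 chromosomes. Outside the member bins the same differences were -1.38, -0.0402, 0.581, 0.666 and 1.07 points.

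Regions called in all 3 libraries of one group and in none of another were counted next. In VCaP16 but not VCaP_DMSO there were 58 members (3.79%), where 2.32% of all kept regions had this pattern, and in the reverse direction 13 (0.849%), where 0.765% did. In VCaP16 but not VCaP_ENZ there were 46 (3.00%, against 1.61%), and in the reverse 10 (0.653%, against 0.587%). In VCaP_ENZ but not VCaP_DMSO there were 21 (1.37%, against 0.932%), and in the reverse 11 (0.718%, against 0.805%). Both shares with VCaP16 as the open group stood above the background, and the 3 reverse shares stood near it. With a minimum score of 5, VCaP_DMSO without VCaP16 was above it, at 1.23% against 0.797%. VCaP_ENZ without VCaP16 was then 0.788% against 0.546%, and VCaP_DMSO without VCaP_ENZ 0.739% against 0.765%. In bins with 10 to 35 kept regions, 17 of 674 members were in VCaP16 but not VCaP_DMSO, near the background of 2.32%. The share of VCaP_ENZ over VCaP_DMSO stood above the background in the lists as deposited. It was below the background when a peak had to cover 50% of the region (0.542% of members against 1.06% of kept regions). Its reverse was then 1.41% against 1.09%, and 3.00% against 1.76% without VCaP_DMSO replicate 2.

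Against all 6 VCaP libraries, 27 members (1.76%) were called in every VCaP16 library and no VCaP library, where 0.776% of kept regions were, and 2 members (0.131%) were called in every VCaP library and no VCaP16 library, where 0.127% were. Members were less often called in all 9 libraries, so more of them could show a pattern. Among regions not called in all 9, the share in VCaP16 but not VCaP_DMSO was 6.10% of members and 4.64% of all, and the share in VCaP16 alone was 2.84% and 1.56%. No single region could pass a test with 3 libraries in a group. With lists of equal length the share in VCaP16 but not VCaP_DMSO was 1.98% of members against 1.75% of all, near the background, the reverse was 1.80% against 1.43%, and VCaP16 alone was 0.899% against 0.598%.

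**Figure D5:**
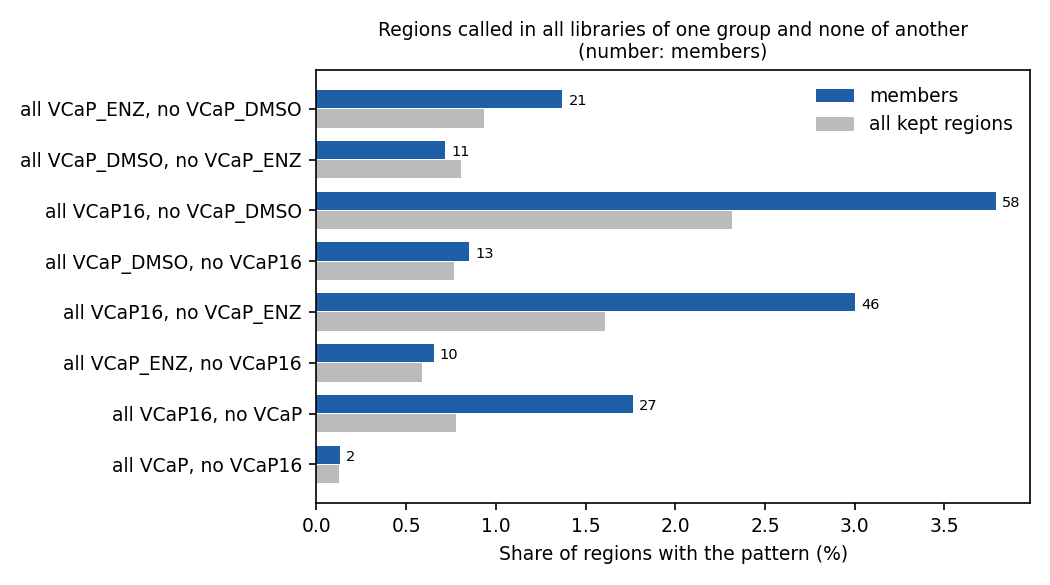
Horizontal bars give the percent of members and of all kept regions (x axis, from 0) with each pattern of all libraries of 1 group against none of another (y axis), and the printed numbers count members. The widest separation is in the patterns with VCaP16 open, such as 3.79% of members and 2.32% of all kept regions open in VCaP16 and not in VCaP_DMSO.

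Interior bins held 53 of the 58 members open in VCaP16 but not VCaP_DMSO (4.79% of interior members) and 25 of the 27 open in VCaP16 alone (2.26%). In gap and terminal bins the same patterns made up 1.18% and 0.471% of members. Of the 58, 27 had no call in VCaP_ENZ, 12 had 1 call, 11 had 2 and 8 had 3. Of the 21 open in VCaP_ENZ but not VCaP_DMSO, 8 also had a call in each VCaP16 library (38.1%, against 34.2% of all kept regions with this pattern). No call there was found for 3 (14.3% against 15.6%), so these shares stood near the background. Of the 11 open in VCaP_DMSO but not VCaP_ENZ, 0 had a call in each VCaP16 library, where 19.4% of all kept regions with this pattern did. Of the same 11, 5 had no call there (45.5% against 28.7%). These comparisons share libraries, and their counts are set side by side only.

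The 27 members open in VCaP16 alone were spread over 11 chromosomes, with 6 on chromosome 2, 5 on chromosome 4 and 3 on chromosome 6. They were weak, at a median of 69.3% of the way down the VCaP16 lists, and narrow, with a median peak of 284 bp. The 501 kept regions with this pattern stood at 72.5% with the same median width, so neither trait is particular to members. Members called in all VCaP16 libraries, whatever VCaP showed, stood at 43.6% with a median width of 496 bp. The best placed was chr5:80173465-80173988, with scores of 12.4, 13.9 and 21.99 in VCaP16, followed by chr4:61730988-61731269 with 12.4, 12.7 and 17.1 and chr13:60583537-60583949 with 3.78, 16.3 and 14.7. None had a peak in any VCaP library. When a peak had to cover 50% of the region, only the chromosome 4 region of these 3 kept its pattern, and the chromosome 13 region also lost it with a minimum score of 5.

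Among members open in VCaP16 and not in VCaP_DMSO, the best placed was chr4:160447178-160447655, with scores of 18.7, 17.5 and 10.3 in VCaP16 and 5.75 in VCaP_ENZ replicate 2. It lay in the chromosome 4 bin described above, 38.2 kb from its neighbour. Next came chr13:70884901-70885574, with 6.74, 15.1 and 17.1 in VCaP16 and 11.1 and 12.8 in VCaP_ENZ replicates 1 and 3, and 230 kb without another kept region. It was followed by chr18:65772928-65773453, which scored 8.12, 20.6 and 17.1 in VCaP16 and 19.7 and 9.40 in VCaP_ENZ replicates 2 and 3. All 3 had a peak in at least 1 library of VCaP cells given the drug and kept their pattern under 50% overlap, equal list length and a minimum score of 5. Against VCaP_ENZ the best placed member was chr9:44419926-44420255, with scores of 32.6, 16.3 and 28.5 in VCaP16 and 26.2 in VCaP_DMSO replicate 1, so it also had a peak in VCaP.

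The 2 members called in every VCaP library and no VCaP16 library were chr21:9825486-9826316 and chr5:101051176-101051737. The first scored 12.3, 24.5 and 17.1 in VCaP_DMSO and 6.30, 19.7 and 23.1 in VCaP_ENZ. It lay in the sparsest member bin, a gap bin, 0.548 kb from chr21:9826865-9827552, one of the strongest members in all 9 libraries. Whether repeated sequence raised either signal was not tested. The second scored 20.1, 12.6 and 9.52 in VCaP_DMSO and 3.16, 4.02 and 4.32 in VCaP_ENZ, and lay in the chromosome 5 bin in which VCaP16 was low. Neither kept this pattern when a peak had to cover 50% of the region, and the chromosome 5 region also lost it with a minimum score of 5 or with lists of equal length.

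Patterns between VCaP_ENZ and VCaP_DMSO were carried by fewer members. The best placed member open in VCaP_ENZ and not in VCaP_DMSO was chr6:123190530-123190876, with scores of 16.0, 15.9 and 12.6 in VCaP_ENZ and 11.8 and 15.6 in VCaP16 replicates 1 and 3. It was followed by chr1:190818341-190818864, with 11.1, 11.7 and 7.27 in VCaP_ENZ and 6.74 and 14.7 in the same VCaP16 libraries. The last of these, chr4:139315302-139315678, scored 8.22, 9.13 and 6.11 in VCaP_ENZ and had no peak in VCaP16, and none of the 3 kept its pattern under 50% overlap. Another member, chr2:83758139-83758567, scored 14.6, 5.75 and 8.32 in VCaP_ENZ, had 1 VCaP_DMSO peak and no VCaP16 peak, and did not keep its pattern under 50% overlap either.

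In the opposite direction, chr10:59519604-59519870 scored 19.9, 10.5 and 13.2 in VCaP_DMSO and had no peak in VCaP_ENZ or VCaP16. The same held for chr18:38918332-38918641, with 22.4, 9.46 and 9.83, and for chr2:82959030-82959227, with 9.75, 13.7 and 6.72. All 3 kept the pattern against VCaP_ENZ under 50% overlap, equal list length and a minimum score of 5. A missing call says that no peak passed the caller's limit in that library, and at unknown depth it does not show closed chromatin. A region open in fewer cells and a region less open in each cell cannot be told apart in bulk libraries.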

How the data were processed

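Each of the 9 libraries had 1 deposited peak list, so peaks were called per library and not pooled. MACS2 2.2.7.1, BWA 0.7.15-r1140, HOMER 3.12 and the build hg19 appear in the submitters' processing notes, with no role given. Read filtering and any Tn5 shift are not given in the sources used here. Per the labels' protocols cells were crosslinked with formaldehyde, and the same text also describes a single-cell preparation; the lists were treated as bulk. Peaks on other sequences (2.43% to 2.62% per list) were left out. The score deposited by the authors, from 2.00 to 5256, served to order peaks inside a list or to drop weak ones, and for nothing else. It rises with depth, which is unknown, and so does the number of peaks.

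A region counted as called where a peak of the library overlapped it by at least 1 bp. Libraries were compared with exact permutation tests and members with other regions by exact sign-flip tests, in Python 3.11.15 with numpy 2.4.6 and scipy 1.17.1, tested on simulated data. The named regions are the 3 per direction with the best median position in the calling lists and the 5 best called in all 9. The named bins are up to 5 per direction with the largest difference among bins whose groups do not overlap. Runs, limits and chromosomes were named by size. Members, lists and rules were chosen with earlier results of these data known. The other settings tried are given with the closing observations. Planned sequence features were not run, since no hg19 genome was used here.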

Additional observations from a re-analysis of the deposited data

How the results depend on the processing

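The differences between members and other regions in width and position kept their direction and their side of 0.05 under every setting run for them, and so did the similarity of libraries over the member bins. In each setting calls had chosen the members, so this does not free width and position from that choice. The group differences in excess share (points) did not. A minimum score of 5 gave 2.21 for the largest difference among 3 groups, with exact permutation p = 0.025 for the sum of squares between groups. It gave 1.81 for VCaP16 minus VCaP (exact permutation p = 0.0238), 0.803 for VCaP_ENZ minus VCaP_DMSO and 0.149 for the share of peaks. Weighting bins equally gave 2.01 for VCaP16 minus VCaP (exact permutation p = 0.0476), and bins with 1 to 45 kept regions gave a score position difference of 2.27 (exact permutation p = 0.0476). Lists of equal length gave -0.00211 for VCaP16 minus VCaP_DMSO. Bins with 10 to 35 kept regions gave -0.535 for VCaP16 minus VCaP, -1.06 against VCaP_DMSO and -0.0143 against VCaP_ENZ. Added after seeing the data, interior bins alone gave 5.19 among 3 groups, 4.80 for VCaP16 minus VCaP and 0.784 for VCaP_ENZ minus VCaP_DMSO, and gap and terminal bins alone gave 6.65, with -4.94, -6.65 and -3.23 for VCaP16 minus VCaP, VCaP_DMSO and VCaP_ENZ. The p-values of that division (0.0143 and 0.0119 for interior bins, exact permutation) carry no weight, since it was chosen from the values. The cause of these changes was not tested.

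Counts of member regions follow the number of members and of libraries, and those that moved over 1.5 times are given here. Brackets give the share of members against that of all kept regions in the same setting. Members numbered 674 with 10 to 35 kept regions, 2638 with 10 to 55 and 1656 with bins started at 2.5 Mb. The kept regions did not change in these settings, so their background shares are those given in the Results. For VCaP16 without VCaP_DMSO, bins with 10 to 35 gave 17, near the background of 2.32%, and bins with 10 to 55 gave 92, above it. Equal list length gave 33 (1.98% against 1.75%) and regions in 2 of 9 libraries 34 (2.96% against 2.09%). The reverse gave 7, 27, 30 (1.80% against 1.43%) and 8 (0.696% against 0.690%), and 25 with a minimum score of 5 (1.23% against 0.797%). VCaP16 without VCaP_ENZ gave 13 with 10 to 35, 28 in 2 of 9 (2.43% against 1.45%) and 73 with 50% overlap (3.96% against 2.29%). The reverse gave 6 with 10 to 35 and 20 with 10 to 55. It gave 23 with equal length (1.38% against 1.07%) and 16 with a minimum score of 5 (0.788% against 0.546%). VCaP_ENZ without VCaP_DMSO gave 13 with 10 to 35 and 10 with 50% overlap (0.542% against 1.06%). The reverse gave 5 with 10 to 35, 23 with 10 to 55 and 17 with bins started at 2.5 Mb. It gave 7 in 2 of 9 (0.609% against 0.726%) and 26 with 50% overlap (1.41% against 1.09%). VCaP16 without VCaP gave 5 with 10 to 35 and 15 both with equal length and in 2 of 9. The reverse gave 5 with 10 to 55, 6 with bins started at 2.5 Mb and 7 with equal length (0.419% against 0.311%). Member bins with VCaP16 above numbered 1 of 28 with 10 to 35, 2 of 49 over all merged regions and 2 of 37 in 2 of 9. They numbered 3 of 53 with equal length and 3 of 59 with 50% overlap. No share over all bins was taken in these settings. Bins below numbered 2 with 10 to 55, a 2.5 Mb start, equal length, all merged regions and a minimum score of 5, and 0 in 2 of 9.

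Leaving out each library gave 1.21 to 3.61 among 3 groups, 1.02 to 3.41 for VCaP16 minus VCaP, 0.00686 to 0.186 for the share of peaks and 1.31 to 2.28 for score position. The counts, in the order above, ran from 58 to 109, 13 to 39, 46 to 101 and 10 to 28. At the highest, the shares of members against all kept regions were 7.11% against 4.71%, 2.55% against 1.53%, 6.59% against 3.70% and 1.83% against 1.70%. The other counts ran from 21 to 46, 11 to 46, 28 to 59 and 2 to 7. Their highest shares were 3.00% against 2.19%, 3.00% against 1.76%, 3.85% against 1.97% and 0.457% against 0.240%. The last count was also reached without VCaP16 replicate 3, at 0.457% against 0.489%. Bins ran from 5 to 10 above and 1 to 3 below. No pairing by replicate number was seen: same-numbered libraries correlated at -0.121 to 0.0737 in 9 pairs, and 1 of 9 libraries correlated best with its own number. The labels do not say whether equal numbers were prepared together, and low correlations cannot exclude it. With a replicate block VCaP16 minus VCaP was 2.10 (exact permutation p = 0.0741), and no call changed. The smallest p that this block permutation allows is 0.037 for 3 against 6 libraries and 0.25 for 3 against 3. The pairwise calls could therefore not change. Depth is unknown, so a missing call cannot be told apart from low depth.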
